A study of Rattus norvegicus with 12 samples.

Results

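The data are the 6 RNA-seq libraries of the deep CA1 sublayer, of 12 in the series: 3 from control rats and 3 from chronically epileptic rats, each library from a different animal. They were chosen by the sublayer and condition in their titles, and every gene identifier in the count tables entered the comparison. All animals were adult male Wistar rats, labelled as 45 to 50 days old and 180 to 200 g. Epileptic rats had received hourly intraperitoneal kainate at 5 mg/kg until status epilepticus, listed as at least 30 minutes long, then diazepam at 4 mg/kg. They were sampled 6 to 8 weeks later, and no such interval is listed for control rats. Control rats had received vehicle, which was saline or DMSO, with otherwise similar handling, and showed no seizures. The labels report that seizures were seen during handling, or recorded, in only a subset of the epileptic animals, and do not say in which. Cell bodies of the deep sublayer were cut by laser from 20 µm frozen sections of the pyramidal layer.

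CA1 is the output field of the hippocampus proper, and its pyramidal cells lie in a deep sublayer facing the stratum oriens and a superficial one facing the stratum radiatum. The sublayers differ in their inputs, targets and firing during network oscillations. Kainate is an agonist of ionotropic glutamate receptors. The seizures it provokes are followed, after a latent period, by spontaneous recurrent seizures, along with loss of neurons, activation of astrocytes and microglia and rewiring of hippocampal circuits. The model is therefore used for temporal lobe epilepsy, and the comparison asks which transcripts differ in deep CA1 once the chronic phase is reached.

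Genes appear below as Ensembl identifiers. The count tables carry no gene names, and 0 of 32662 identifiers could be matched to the gene table at hand, so no function is given for any of them and no sequence could be assigned to them. For the same reason, the CA1, glial and vascular marker genes could not be read, and the labelled tissue was not checked against them. A laser-cut sample holds every cell within the cut, so a change in the mixture of cells, in the number of cells of a type or in the RNA of each cell cannot be told apart here.

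The deep libraries held 16135358 to 18706187 gene counts in control and 20745209 to 23222111 in epileptic rats, with 18563 to 19219 identifiers detected. The share of alignments outside annotated exons was 44.0, 40.4 and 43.9% in control animals 1, 2 and 3. In the epileptic animals it was 43.0% in animal 1, within the control range, but 26.7% in animal 2 and 22.3% in animal 3. The single most abundant identifier took 11.3 to 12.97% of gene counts in controls and 16.6, 22.8 and 22.5% in epileptic animals 1, 2 and 3. Alignments that were not unique took 25.9, 28.5 and 27.3% in control animals 1, 2 and 3. In epileptic animals 1, 2 and 3 they took 25.2, 37.9 and 45.6%. Epileptic animals 2 and 3 thus stood apart from the controls in all these shares, and animal 1 clearly only in that of the most abundant identifier.

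In deep CA1, no identifier passed the test for a difference between epileptic and control rats. After filtering on low counts, 14261 identifiers were tested with edgeR's quasi-likelihood test, and 0 had a Benjamini-Hochberg adjusted p below 0.05 (0%). The smallest adjusted p was 0.0519. There were 8 identifiers below 0.06, 3 higher and 5 lower in epileptic rats, and 49 below 0.1, 27 of them higher. Without adjustment, 1947 identifiers (13.7%) had a p below 0.05, made up of 1172 higher (8.22%) and 775 lower (5.43%) in epileptic rats. These p-values set each difference against a spread between animals that is estimated over both conditions together, with 3 animals per condition. The count of calls depended on single epileptic animals, with 552 without animal 1, 1 without animal 2 and 275 without animal 3, and it was 0 without any 1 control animal. With all 6 libraries, DESeq2 called 376, limma-voom 0, and limma-voom with sample quality weights 2171. edgeR itself called 99 with the share outside exons as a term and 239 with the replicate number as a block (1.68%), although that number joins different animals.

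Across all tested identifiers the differences were small. The median absolute log2 fold change was 0.15, 90% of identifiers lay below 0.60 and 99% below 1.68. A difference of at least 2-fold was fitted for 514 identifiers, 424 of them higher in epileptic rats. Of these, 78 had a mean level of at least 3 on the log2 CPM scale, where CPM is the count scaled to the size of the library after TMM normalisation. No identifier was switched on or off in the strict sense, since none had 0 counts in all libraries of 1 condition and at least 10 in every library of the other.

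For 2664 identifiers (18.7%) the 3 epileptic values did not overlap the 3 control values. Of these, 1273 (8.93%) lay above and 1391 (9.75%) below all controls. These counts need no model of the spread. The total was 3435, 4025 and 4310 without control animal 1, 2 or 3. It was 5956, 3457 and 4487 without epileptic animal 1, 2 or 3. Fewer libraries make overlap rarer, so a rise does not by itself show that the total rests on that animal.

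The 4 identifiers named here had the smallest p in each direction among non-overlapping identifiers whose mean level was at least 1 log2 CPM. ENSRNOG00000014819 had 16.9, 16.1 and 17.1 CPM in control animals 1, 2 and 3, and 27.7, 28.7 and 28.5 CPM in the epileptic animals. All 3 epileptic animals were high and close together. The rule required groups without overlap, and choosing the smallest p favours values that lie close together, so both are descriptions of what was chosen. The means were 16.7 ± 0.514 and 28.3 ± 0.531 CPM (SD, n = 3 each), so the spread among epileptic animals was 1.88% of their mean, about that of the controls at 3.08%. The log2 fold change was 0.76 (SE 0.09), with an adjusted p of 0.0519 in edgeR's test.

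ENSRNOG00000057556 had a similar pattern, with 11.1, 11.0 and 10.8 CPM in control and 19.8, 18.9 and 19.8 CPM in epileptic animals. As the rule required, every epileptic animal exceeded every control, and animal 1 reached the same level as animal 3. The means were 10.95 ± 0.166 and 19.5 ± 0.550 CPM (SD, n = 3 each), a log2 fold change of 0.83 (SE 0.10, edgeR adjusted p = 0.0519). These values rested on 185 to 214 reads per control library and 374 to 424 per epileptic library.

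Of the identifiers named here, the lower ones had the larger fitted differences. Their epileptic means were under 1 log2 CPM, at 0.339 CPM for ENSRNOG00000045967 and 1.23 CPM for ENSRNOG00000054809. Both therefore met the level rule only through their control values, and their size is a description of what was chosen. It does not rank the directions over all tested identifiers. ENSRNOG00000045967 had 2.80, 3.08 and 5.42 CPM in control animals and 0.421, 0.331 and 0.265 CPM in epileptic animals. It was low in all epileptic libraries, at 5 to 9 reads each against 54 to 93 in controls. Here the controls were the more variable group, with an SD of 38.2% of the mean against 23.1% in epileptic rats. The log2 fold change was −3.44 (SE 0.38, edgeR adjusted p = 0.0519).

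ENSRNOG00000054809 had 8.46, 7.59 and 7.57 CPM in control animals and 0.561, 1.70 and 1.43 CPM in epileptic animals. The lowest value was that of epileptic animal 1. The spread was 48.4% of the mean among epileptic rats, on 12 to 36 reads per library, and 6.46% among controls. The log2 fold change was −2.67 (SE 0.33, edgeR adjusted p = 0.0519). All 4 identifiers passed in 8 of the 9 alternatives that kept every library of deep CA1 and failed in limma-voom, where the adjusted p was 0.0812 for 3 of them and 0.0930 for ENSRNOG00000045967. Over these 9 alternatives the adjusted p of the 4 ranged from 1.086e-10 to 0.0930.

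**Figure D1:**
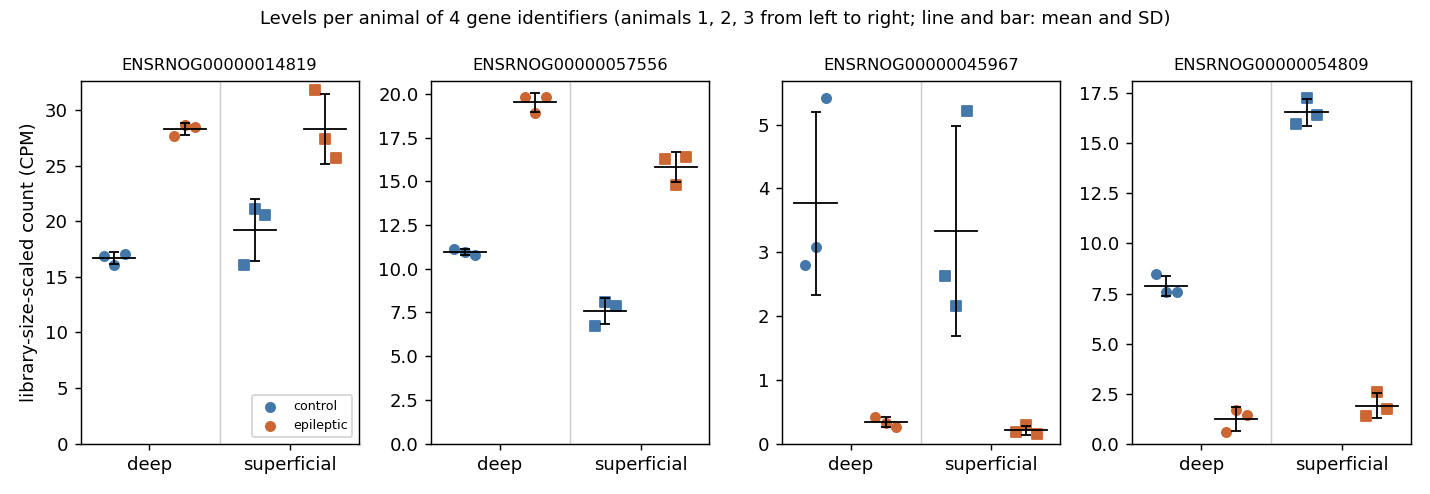
Library-size-scaled counts (CPM, linear axis from 0) of the 4 identifiers in each animal, with deep libraries as circles and superficial libraries as squares; lines and bars give the mean and SD of 3 animals. In deep CA1 the 3 epileptic values of ENSRNOG00000014819 lie at 27.7 to 28.7 CPM above all controls, and those of ENSRNOG00000054809 at 0.561 to 1.70 CPM below all controls.

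The larger differences were carried unequally by the epileptic animals. Among the 78 identifiers with a fitted change of at least 2-fold and a mean log2 CPM of at least 3, 65 were higher and 13 lower in epileptic rats, and 0 passed the test. The level is a mean over all 6 libraries, so 35 of the 65 had a control mean under 3 and entered through their epileptic values, and 8 of the 13 had an epileptic mean under 3. The split between directions and the animal that lies farthest are therefore partly set by this choice and are given as a description. Relative to the control mean, the 65 higher identifiers had a median log2 difference of 0.43 in animal 1, 1.27 in animal 2 and 2.02 in animal 3. Animal 1 did not exceed the highest control for 27 of the 65, animal 3 for 5 and animal 2 for 0. A few of these values lay below every control. Animal 3 was the highest epileptic animal in 47 of the 65 (72.3%), against 48.4% of all 7153 identifiers fitted higher. Animal 1 was lowest, animal 2 intermediate and animal 3 highest in 45 of the 65. Of the 30 whose control and epileptic means were both at least 3, 21 had this order of animals.

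The identifier with the largest fitted change had this order. It stood 2.19 log2 units above the control mean in epileptic animal 1, 6.39 in animal 2 and 8.16 in animal 3, with a fitted log2 fold change of 7.16. Of the 17 identifiers fitted at least 4-fold higher, 14 had it.

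A smaller number of the 65 had the opposite arrangement. In 13 of them animal 3 was the lowest of the epileptic animals, and in 11 both animals 1 and 2 were at least 2-fold above the control mean while animal 3 was not. Only 10 of the 65 were at least 2-fold above the control mean in every epileptic animal.

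Among the 13 lower identifiers the order was different. Epileptic animal 1 had the lowest value in all 13. This was not the pattern of all 7108 identifiers fitted lower, where animal 1 was the lowest epileptic animal in 27.2% and animal 3 in 47.5%. For the 13, the median log2 difference from the control mean was −1.95 in animal 1, −1.21 in animal 2 and −0.92 in animal 3. None of the 13 had overlapping groups, and 33 of the 65 higher identifiers had none either. Over all tested identifiers, 9.75% lay below all controls and 8.93% above. A fitted change of at least 2-fold makes overlap rarer, so these counts only describe what was chosen. Of the 13, 3 were at least 2-fold below the control mean in every epileptic animal. Animal 1 therefore stayed at or below the highest control more often than animals 2 and 3 among the 65 higher identifiers. It lay farthest from the control mean for each of the 13 lower ones.

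The share of alignments outside exons ran the opposite way to most of the 65 higher identifiers, being highest in animal 1 at 43.0% and lowest in animal 3 at 22.3%, with animal 2 between them at 26.7%. When that share was added to the edgeR model as a covariate, 85 identifiers had a change of at least 2-fold at this level, of which 40 were higher and 45 lower, and 99 of all tested passed, 50 of them higher. Without epileptic animal 3 the split was 41 higher to 23 lower, and without animal 1 it was 97 to 13. Epileptic animals 2 and 3 had a lower share than every control, so share and condition cannot be told apart in them. Whether the share lies behind these differences was not tested.

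**Figure D2:**
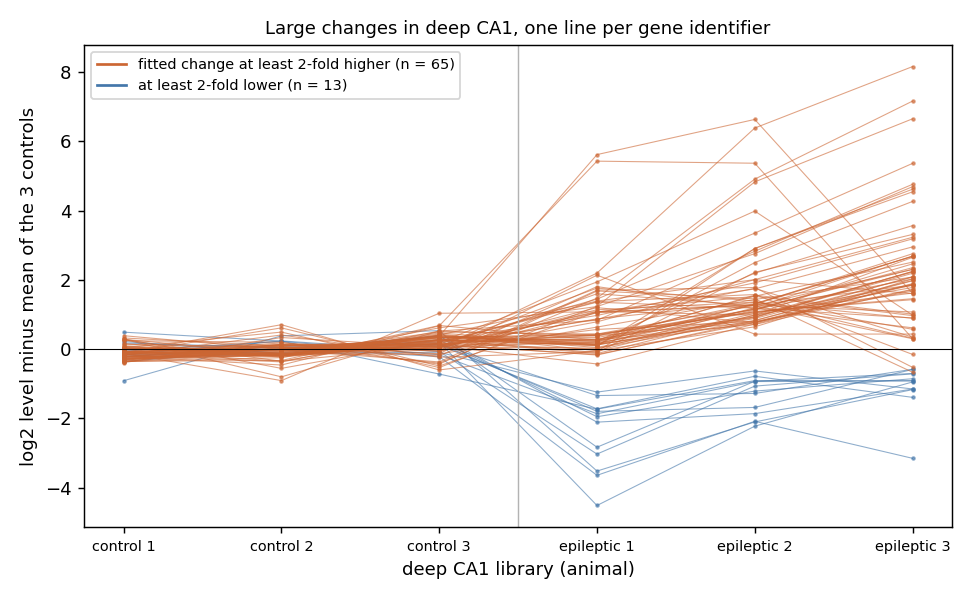
Log2 level in each deep library minus the mean of the 3 controls for the 78 identifiers with a fitted change of at least 2-fold and a mean log2 CPM of at least 3, 1 line per identifier; lines only join its values, as the animals have no order. Lines of the 65 higher identifiers fan out among epileptic animals, with a median of 0.43 in animal 1 and 2.02 in animal 3, while the 13 lower ones are lowest in animal 1.

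Epileptic animals differed more among themselves than controls did. The SD of log2 CPM between 3 animals had a median of 0.20 over identifiers in epileptic and 0.13 in control rats, and it was larger in the epileptic group for 10051 of 14261 identifiers (70.5%). This excess grew with the level of the identifier, from 62.8% of those under 1 on the log2 CPM scale to 78.8% of those over 7. The biological coefficient of variation, which is edgeR's estimate of the spread beyond counting error, had a median of 18.03% in epileptic and 9.18% in control libraries. For the 78 identifiers with large differences it was 45.7% and 13.03%. These were chosen by change and level in the same libraries, so their epileptic spread is partly set by the choice and is only a description. Leaving out 1 library at a time, the epileptic median over all tested identifiers ran from 13.6 to 24.0%. The control median ran from 7.37 to 11.3%, so the ranges did not meet.

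Distances between whole libraries were then compared. The median absolute log2 difference between 2 control animals was 0.12 to 0.18, and between 2 epileptic animals it was 0.20 for animals 1 and 2, 0.22 for animals 2 and 3 and 0.31 for animals 1 and 3. On the first principal component, with 51.5% of the variance, controls lay at −25.4 to −12.1, epileptic animal 1 at −14.0, animal 2 at 19.8 and animal 3 at 52.4. Animal 1 left the control range on the second component (21.7% of the variance), at −31.3 against 8.67 to 18.3 in controls. Animal 2 also lay below the controls there, at −17.2, and animal 3 within their range at 10.8.

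**Figure D3:**
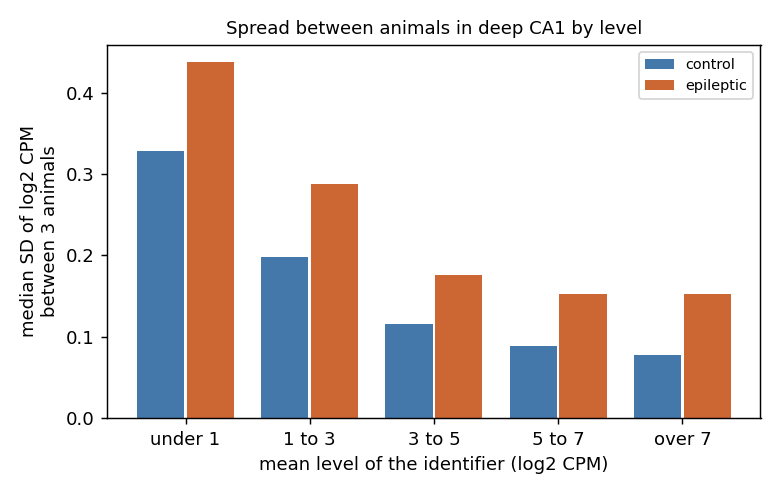
Median SD of log2 CPM between the 3 animals of a condition (linear axis from 0), for identifiers grouped by mean level. The epileptic bar is the taller in every class, at 0.44 against 0.33 under 1 log2 CPM and 0.15 against 0.08 over 7.

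The direction of the non-overlapping differences varied with the level of the transcript, and so did that of all tested identifiers. Of all those tested, 7153 were fitted higher and 7108 lower. At a mean log2 CPM of at least 3, the numbers were 4227 higher and 5209 lower. The shift with level was therefore not limited to the non-overlapping identifiers. Among identifiers with a mean log2 CPM of 1 to 3, 408 lay above and 182 below all controls. Between 3 and 5 the directions were balanced, at 392 above and 386 below. Between 5 and 7 there were 208 above and 461 below, and over 7 there were 49 above and 225 below. Under 1 log2 CPM, 216 lay above and 137 below. The higher share was thus 69.2% at 1 to 3 and 17.9% over 7, while the total share of non-overlapping identifiers was similar in all classes, at 17.2 to 21.2%.

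All 3 epileptic libraries were deeper than all 3 control libraries, and the scaling between libraries moves such splits. With counts thinned to 16135358 in every library, the higher share was 68.7% at 1 to 3 and 19.9% over 7. It was 70.7 and 20.5% with RLE size factors, 72.4 and 23.4% with upper-quartile scaling and 73.6 and 23.9% without the 2 most abundant identifiers. Scaling by library totals alone moved the median log2 fold change of all identifiers to −0.16, and the shares were then 37.6 and 3.77%. The share of higher identifiers was smaller over 7 than at 1 to 3 log2 CPM under each of these 5 settings and with TMM, whereas the lead of higher over lower ones at 1 to 3 turned with library totals alone.

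**Figure D4:**
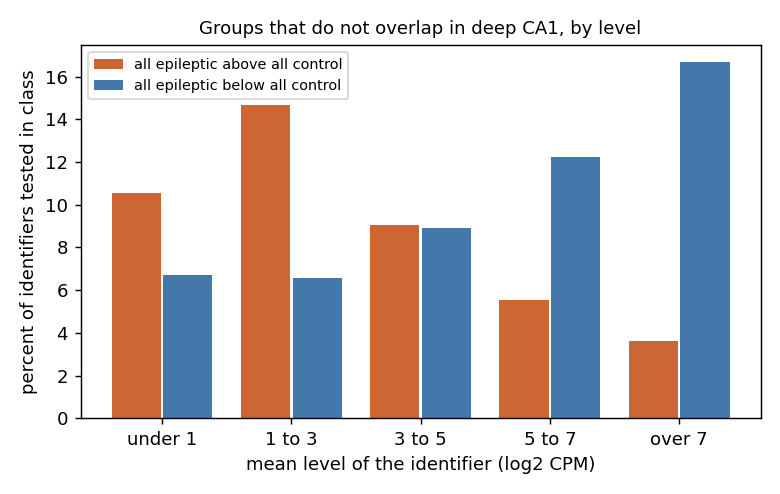
Percent of tested identifiers in each level class whose 3 epileptic deep libraries all lie above, or all below, the 3 controls under TMM scaling. Higher identifiers lead at 1 to 3 log2 CPM (408 against 182) and lower ones lead over 7 (225 against 49); with scaling by library totals alone, lower ones lead in every class.

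None of these differences was shown to be particular to deep CA1. A direct test of the epilepsy effect in deep minus that in superficial CA1, with a term for each animal, called 0 of 14791 identifiers (0%) with edgeR, and 976 (6.6%) lay at an unadjusted p below 0.05. DESeq2 called 2. The edgeR count was 84 without epileptic animal 1 and 12 without epileptic animal 3.

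The superficial libraries of the same animals gave the same direction for the 4 named identifiers. ENSRNOG00000014819 had 16.0, 21.1 and 20.6 CPM in superficial control and 31.8, 27.4 and 25.7 CPM in superficial epileptic libraries, a log2 fold change of 0.56 (SE 0.14, edgeR adjusted p = 0.1334). ENSRNOG00000057556 had 6.72, 8.10 and 7.88 CPM against 16.3, 14.8 and 16.4 CPM, a log2 fold change of 1.06 (SE 0.12, edgeR adjusted p = 0.0581). The controls of both identifiers lay below every epileptic library in this sublayer too.

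ENSRNOG00000045967 had 2.63, 2.16 and 5.22 CPM in superficial control libraries and 0.189, 0.292 and 0.148 CPM in epileptic ones (log2 fold change −3.94, SE 0.48, edgeR adjusted p = 0.0582). ENSRNOG00000054809 had 15.98, 17.3 and 16.4 CPM in superficial controls and fell to 1.37, 2.59 and 1.72 CPM in epileptic animals (log2 fold change −3.12, SE 0.23, edgeR adjusted p = 0.0098). It was the only 1 of the 4 to pass in superficial CA1. The deep effect minus the superficial effect was 0.22 (SE 0.14), −0.22 (SE 0.13), 0.48 (SE 0.48) and 0.45 (SE 0.25) on the log2 scale for the 4 identifiers in the order given, with edgeR adjusted p from 0.8301 to 0.9152.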

How the data were processed

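The deposited values are raw counts per Ensembl gene, 1 table per library, as the authors made them. Build Rnor_6.0 and the tools HTSeq 0.6.1, STAR 2.5.0c, SAMtools 0.1.19 and FastQC 0.11.3 are listed, without settings, in the submitters' processing notes. No source used here gives the strand setting, so overlapping, antisense or near-identical genes may share reads. In the deep libraries 28.6 to 35.1% of tallied alignments were assigned to genes. The 5 tally rows were left out.

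Identifiers were filtered by filterByExpr (minimum count 10, minimum total 15), scaled by TMM and tested by edgeR 4.0.16 (R 4.3.3) with robust quasi-likelihood dispersions, 3 animals against 3, Benjamini-Hochberg adjusted over all tested at 0.05. The SE is the absolute log2 fold change over the square root of F. Per-library log2 levels used a prior count of 2. Alternatives used DESeq2 1.42.0 and limma 3.58.1. The difference between sublayers was fitted over 12 libraries. Named identifiers followed a rule (no overlap, mean log2 CPM of at least 1, smallest p), limited to 2 per direction where no symbols exist. The 34 symbol lists drawn up could not be applied. The comparison, lists and rules were chosen with earlier results of these data known.

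No 2 libraries of a condition were duplicates (chi-square per identifier 7.29 to 87.7). Counts were also simulated with the deep libraries' means and spread over 14261 identifiers. On these, the test recovered 37.3% of 1.5-fold, 73.1% of 2-fold and 84.8% of 3-fold changes. Of its calls 10.3% were false, and it made 2 calls where none was planted. These rates describe the simulated counts only. The animals' median biological coefficient of variation was 18.03% in epileptic and 9.18% in control libraries. Whether the rates hold under this unequal spread was not tested, so they do not show how many real changes were missed.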

Additional observations from a re-analysis of the deposited data

How the results depend on the processing

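Calls in deep CA1 (epileptic against control), 0 with edgeR as fitted, numbered 8 with RLE size factors (3 higher), 8 without the 2 most abundant identifiers (3 higher), 103 with no low-count filter (65 higher), 48 in a fit of all 12 libraries (16 higher), 99 with a covariate for the share outside exons (50 higher), 376 by DESeq2 (250 higher) and 2171 by limma-voom with sample quality weights (1189 higher), and stayed at 0 by limma-voom. Leaving out 1 library gave 0 to 552. The cause of these differences was not tested. Replicate numbers join different animals across conditions, and deviations from the group mean correlated at 0.23, 0.09 and 0.25 for numbers 1, 2 and 3. Correlations across numbers were at most 0.00794. Deviations sum to 0 within a group, so positive values for equal numbers push those across numbers down, and this contrast is no added support. With the number as a replicate block 239 identifiers were called (1.68%), 165 of them higher. The number whose groups do not overlap was 2638 with RLE size factors and 3237 with no filter, and 3435 to 5956 with 1 library left out. The median biological coefficient of variation stayed within 1.5 times its value under RLE size factors, a common dispersion and each left-out library. For deep minus superficial effects, 0 as fitted, the count was 2 by DESeq2, 178 with no low-count filter (153 of them lower), 0 with RLE size factors, and 0 to 84 with 1 animal left out. The 4 named identifiers kept their direction under all alternatives, with log2 fold changes of 0.74 to 0.79, 0.79 to 0.86, −3.61 to −3.04 and −3.56 to −2.31 in the order of the report. Their adjusted p with 1 library left out ran from 0.003943 to 0.3269. All settings of the level classes, and the counts of 2-fold differences under each fit, were added after seeing the data. Depth limits the lowest values most: at 5 to 9 reads the counting error alone is large.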
